A study of Mus musculus with 48 samples.

Results

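Expression of 7 genes of the hedgehog pathway was followed through the hair cycle of mouse skin and in the ear: the ligand Shh, its receptor Ptch1, the inhibitor Hhip, the signal transducer Smo and the transcription factors Gli1, Gli2 and Gli3. They were picked by gene symbol and not by a cut on their values, though with earlier results of these data known. All 7 were present among the 46983 genes of both deposited tables. RNA had been sequenced from whole skin of C57BL/6 mice, taken from the chin, ventral and dorsal domains at 6 labelled stages: competent telogen (the first resting phase), early, mid and late anagen (growth), catagen (regression) and refractory telogen (the early second rest). The skin table held 43 libraries in 18 groups, of which 11 had 2 libraries and 7 had 3. A second table held 2 libraries of telogen ear skin (labelled rostral), 3 of the ear cartilage/muscle complex and 2 of dorsal competent telogen skin. These 2 dorsal libraries had the same values in both tables, so that 48 libraries were distinct. The labels give no age, sex, treatment or transgene for these libraries, and the sources used here do not say whether the replicates came from separate mice or pooled tissue, so the p-values measure only the spread between libraries.

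Hedgehog ligands bind Ptch1, which otherwise holds Smo inactive at the primary cilium. Active Smo lets Gli2 act as an activator and lowers the repressor form of Gli3, and the cell then transcribes Gli1, Ptch1 and Hhip, which are widely used as readouts of the pathway. In skin, Shh is made by epithelial cells of the growing hair follicle (HF) and is needed for the follicle to grow down at the start of anagen.

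On the mouse build GRCm38, Shh lies at chr5:28456815-28467256 on the minus strand, Ptch1 at chr13:63508328-63573598 on the minus strand, Hhip at chr8:79965851-80058006 on the minus strand and Smo at chr6:29735503-29761365 on the plus strand. Gli1 lies at chr10:127329882-127341974 on the minus strand, Gli2 at chr1:118834132-119053619 on the minus strand and Gli3 at chr13:15463235-15730026 on the plus strand. RefSeq (GRCm38.p6) windows of 250 bases before the gene start were matched for 5 members, Ptch1, Gli2, Gli3, Hhip and Smo. The windows of Ptch1 (chr13:63565736-63565985, minus strand), Hhip (chr8:80058009-80058258, minus strand) and Gli3 (chr13:15463473-15463722, plus strand) are shown because these genes rose together in dorsal catagen. They are printed 5′ to 3′ with each CG pair in capitals, and those of Ptch1 and Gli3 lie inside the annotated gene, downstream of a further start site.
Ptch1: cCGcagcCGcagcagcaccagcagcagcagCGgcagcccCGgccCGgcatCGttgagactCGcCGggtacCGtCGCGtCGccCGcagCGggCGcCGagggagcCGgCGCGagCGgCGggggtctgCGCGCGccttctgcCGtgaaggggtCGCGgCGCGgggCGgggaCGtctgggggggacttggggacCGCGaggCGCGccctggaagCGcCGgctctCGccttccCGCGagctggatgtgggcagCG
Hhip: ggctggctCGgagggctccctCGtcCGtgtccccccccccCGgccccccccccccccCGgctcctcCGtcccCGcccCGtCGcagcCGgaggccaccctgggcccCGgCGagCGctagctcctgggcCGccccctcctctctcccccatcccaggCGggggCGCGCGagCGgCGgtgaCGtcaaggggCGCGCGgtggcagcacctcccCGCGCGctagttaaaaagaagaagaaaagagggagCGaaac
Gli3: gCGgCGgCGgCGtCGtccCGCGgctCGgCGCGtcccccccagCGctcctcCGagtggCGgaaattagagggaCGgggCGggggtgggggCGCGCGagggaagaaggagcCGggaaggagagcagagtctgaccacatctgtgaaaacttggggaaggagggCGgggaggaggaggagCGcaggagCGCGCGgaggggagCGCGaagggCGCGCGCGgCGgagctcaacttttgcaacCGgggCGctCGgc
These windows held 41, 28 and 34 CG pairs, against a median of 6 over the 32851 windows of the table. The windows of Gli2 and Smo, not printed, were above this median too, with 22 and 15. The Gli recognition motif GACCACCCA, searched on both strands, was present in 74 of the 32851 windows (0.225%) and in none of the 5 matched members, which describes these letters in these windows only.

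The deposited values are FPKM, fragments per kilobase of transcript scaled to the size of the library. They allow levels of different genes to be set side by side, while comparisons between libraries also depend on how the libraries are scaled. The smallest increments of the values, each worth 1 fragment, gave an estimated depth of 6760000 to 27540000 fragments per library, with a median of 12820000, and 3 fragments of Shh were then worth 0.041 to 0.168 FPKM. This depth is an estimate: 73.8 to 83.6% of the low values used came out within 0.15 of a whole fragment, against 30% by chance. Differences were tested with limma on log2(FPKM + 1), a scale that understates the change of low genes. A gene was called when its p, adjusted by the Benjamini-Hochberg method over all genes tested, was under 0.05, with 21257 genes tested in the skin and 19299 in the ear. In whole skin, fewer cells of a type and less RNA per cell cannot be told apart.

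Of the 43 libraries, 36 had their nearest library in their own group. The exceptions included chin early anagen replicate 1, nearest to chin competent telogen, and both chin mid anagen libraries, nearest to ventral mid anagen and ventral catagen. The 2 chin late anagen and the 2 dorsal competent telogen libraries each had theirs in the other of these groups, and only 2 of 21257 genes were called between these groups (0.00941%), with 387 (1.82%) at an unadjusted p under 0.05. The members differed there by -0.28 to 0.12 on the log2 scale. The summed level of 8 proliferation genes in competent telogen, 310 to 339 FPKM in the chin, 344 to 407 in the ventral and 164 to 171 in the dorsal libraries, lay within the range of the anagen libraries other than ventral early anagen. In ventral early anagen it was 31.2 to 42.8 FPKM, below the 44 to 63.1 FPKM of refractory telogen, and the 5 melanocyte genes summed to 16.8 to 17.8 FPKM against 10 to 22.4 in refractory telogen. Dorsal catagen had the highest mean of the 18 groups for Mki67 (22.9 FPKM) and Top2a (116 FPKM), but not for Cdk1, Ccnb1 or Aurkb. It was also highest for Hoxc13, a hair matrix gene (193 FPKM). Foxn1, another hair matrix gene, had 11.3 FPKM there, against 33.7 in chin and 39.1 FPKM in ventral catagen. A ventral catagen library carries an ear location among its labels. The kit did not mark the strand, and genes on the opposite strand share exon bases with Shh (361 with Gm26894 and 446 with 9530036O11Rik, of 2847), Gli1, Gli3 and Hhip, so that reads from either strand there cannot be told apart. Stages are named as labelled. The fits were repeated without ventral early anagen, without chin late anagen and dorsal competent telogen, and without all competent telogen and ventral early anagen libraries, but a comparison made directly with any of these groups has no value without it.

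Shh, the ligand, had its highest levels in dorsal early anagen, at 9.99 and 11.65 FPKM, and in ventral competent telogen, at 9.05, 11.92 and 8.82 FPKM. These 2 groups overlapped, and both lay above all other libraries. Chin competent telogen had 7.55 and 4.56 FPKM, chin early anagen 3.6 and 6.58 FPKM, and chin mid anagen 5.57 and 3.07 FPKM. Ventral mid anagen had 3.3 and 4.67 FPKM, and ventral late anagen 3.44, 3.61 and 2.65 FPKM. These groups of anagen and of chin competent telogen formed a continuous middle range, in which each group overlapped its neighbour. The same range held dorsal mid anagen with 3.59, 4.05 and 3.34 FPKM, dorsal late anagen with 3.68, 2.91 and 3.41 FPKM, and the catagen libraries, with 2.8, 2.99 and 2.56 FPKM in the chin, 3.25 and 3.71 FPKM in the ventral and 3.74 and 4.05 FPKM in the dorsal skin. Dorsal competent telogen was lower, at 2.21 and 1.97 FPKM, and chin late anagen had 1.35 and 1.76 FPKM. In refractory telogen Shh was at 0.75, 0.73 and 0.51 FPKM in the chin and at 1.19 and 1.08 FPKM in the dorsal skin. The 2 ventral refractory telogen libraries disagreed, at 2.14 and 0.6 FPKM, with exact Poisson 95% intervals of 1.712 to 2.657 and 0.4 to 0.884 that cover counting error only. The lowest levels of all 43 libraries were the 0.14, 0.27 and 0.2 FPKM of ventral early anagen, which stood for an estimated 7, 10 and 8 fragments. The highest group mean was 53.2 times the lowest, the widest range of the 7 members. Of the 17 pairs of neighbours in the order of the 18 groups, 12 overlapped and 5 did not.

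**Figure D1:**
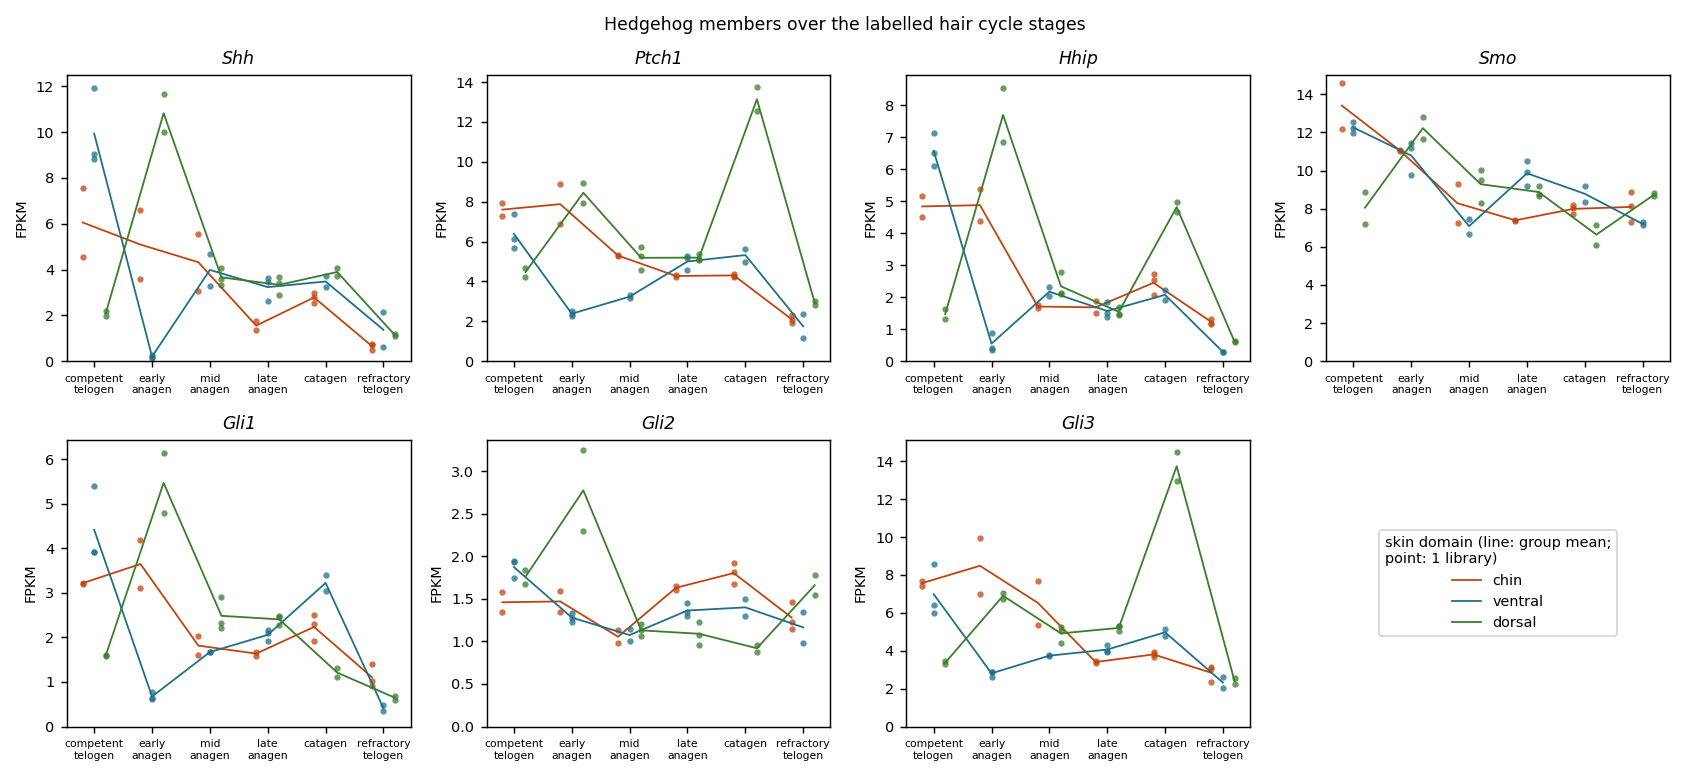
FPKM (y axis) of each member over the 6 labelled stages (x axis), with 1 point per library, lines through the group means, and chin, ventral and dorsal skin in orange, blue and green. Shh, Hhip and Gli1 peak in dorsal early anagen (means 10.82, 7.7 and 5.47 FPKM), whereas Ptch1 and Gli3 peak in dorsal catagen (13.14 and 13.74 FPKM).

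Ptch1, the receptor and a target of the pathway, was highest in dorsal catagen, with 12.53 and 13.75 FPKM, above every other library. It was next highest in dorsal early anagen (8.95 and 7.95 FPKM), chin early anagen (6.89 and 8.87 FPKM) and chin competent telogen (7.94 and 7.27 FPKM), which overlapped. Ventral competent telogen had 6.13, 7.38 and 5.66 FPKM. The refractory telogen libraries were low in all domains, with 1.93, 2.31 and 2.08 FPKM in the chin, 2.35 and 1.15 FPKM in the ventral and 2.81 and 3.03 FPKM in the dorsal skin. Ventral early anagen, at 2.35, 2.26 and 2.54 FPKM, overlapped the ventral and chin libraries of refractory telogen. The other groups lay between 3.18 and 5.74 FPKM, and the highest group mean was 7.51 times the lowest.

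Hhip, a membrane protein that binds and sequesters the ligand, had the same 2 highest groups as Shh. Dorsal early anagen had 8.55 and 6.85 FPKM and ventral competent telogen 6.52, 7.13 and 6.09 FPKM, and these 2 groups overlapped. Chin early anagen (4.38 and 5.38 FPKM), chin competent telogen (4.5 and 5.18 FPKM) and dorsal catagen (4.98 and 4.66 FPKM) formed a second level. Ventral refractory telogen was lowest, at 0.3 and 0.28 FPKM, followed by ventral early anagen at 0.88, 0.35 and 0.42 FPKM and dorsal refractory telogen at 0.6 and 0.63 FPKM. Chin refractory telogen stayed higher, at 1.32, 1.2 and 1.16 FPKM, and did not overlap the other refractory groups. The highest group mean was 26.6 times the lowest. Smo, the transducer, varied least. Its libraries ranged from 6.11 FPKM in dorsal catagen to 14.61 FPKM in chin competent telogen, with a median of 8.85 FPKM. Its highest group mean was 2.02 times the lowest.

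Gli1, whose transcription is switched on by the pathway, had 6.14 and 4.79 FPKM in dorsal early anagen and 5.4, 3.92 and 3.92 FPKM in ventral competent telogen. Chin early anagen followed with 3.1 and 4.19 FPKM, ventral catagen with 3.04 and 3.4 FPKM, and chin competent telogen with 3.23 and 3.2 FPKM, and each of these overlapped the next. At the low end were ventral refractory telogen (0.48 and 0.34 FPKM), dorsal refractory telogen (0.6 and 0.69 FPKM) and ventral early anagen (0.78, 0.61 and 0.63 FPKM). The highest group mean was 13.3 times the lowest. Dorsal catagen, where Ptch1 peaked, had only 1.1 and 1.32 FPKM of Gli1, below every library of the chin and ventral catagen groups.

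Gli3, best known as the source of the pathway's repressor, had its highest levels in dorsal catagen, at 12.97 and 14.51 FPKM. The next groups were chin early anagen (7.01 and 9.96 FPKM), chin competent telogen (7.7 and 7.44 FPKM), ventral competent telogen (6.41, 8.56 and 5.99 FPKM) and dorsal early anagen (6.74 and 7.06 FPKM). No library of these reached the dorsal catagen values. Ventral refractory telogen had 2.59 and 2.05 FPKM and dorsal refractory telogen 2.24 and 2.57 FPKM. Gli2, the main activator, stayed between 0.88 and 3.25 FPKM in all libraries, with its highest values in dorsal early anagen (3.25 and 2.3 FPKM) and its lowest in dorsal catagen (0.88 and 0.96 FPKM). Gli2 and Gli3 thus had their extremes in opposite directions in dorsal catagen.

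Whether the course over the stages differed among the domains was tested as the interaction of domain and stage. All 7 members were called, on a background of 73.3% of the genes tested. Adjusted p (limma) was 1.4e-14 for Hhip, 1.43e-12 for Gli1, 1.31e-11 for Gli3, 3.04e-11 for Shh, 9.69e-11 for Ptch1, 7.77e-07 for Gli2 and 7.85e-06 for Smo. Without the competent telogen and ventral early anagen libraries, 6 of 7 were called and Shh was lost (limma adjusted p = 0.113). Without the chin late anagen and dorsal competent telogen libraries, all 7 were called. Within a domain, all 7 members changed over the 6 stages in the chin, ventral and dorsal skin alike, where 66.2%, 70.2% and 68.5% of the genes tested were called. Gli2 in ventral skin lost its call when libraries were scaled by the median of ratios (limma adjusted p = 0.117). These counts stand on high backgrounds, and the members are described below by the steps between stages.

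In chin skin, no member was called between competent telogen and early anagen, where 2.14% of all genes were. The Shh difference was -0.22 ± 0.25 on the log2 scale (SE, 2 libraries against 2). From early to mid anagen 4 members fell (18.1% of all genes called). Hhip went from 4.38 and 5.38 to 1.75 and 1.67 FPKM, a log2 difference of -1.11 ± 0.14 (limma adjusted p = 1.38e-06), and Gli1 from 3.1 and 4.19 to 2.02 and 1.61 FPKM, a difference of -0.72 ± 0.14 (limma adjusted p = 0.000496). Neither gene's libraries overlapped between these stages. Ptch1 (-0.49 ± 0.14) and Smo (-0.39 ± 0.11) fell as well, but lost the call under scaling by the median of ratios (limma adjusted p = 0.12 and 0.328). Ptch1 was also lost without chin early anagen replicate 2 (-0.32, limma adjusted p = 0.192) or chin mid anagen replicate 1 (limma adjusted p = 0.0521), and Smo without either chin early anagen replicate (limma adjusted p = 0.061 and 0.0677) or chin mid anagen replicate 1 (-0.23, limma adjusted p = 0.239). From mid to late anagen 3 members were called (19.7% of all genes). Shh fell by 1.02 on the log2 scale (SE 0.25, limma adjusted p = 0.0034) and Gli3 by 0.76 (SE 0.14), while Gli2 rose by 0.36 (SE 0.11, limma adjusted p = 0.0159). The Gli2 call was lost without chin mid anagen replicate 2 or without either late anagen replicate (limma adjusted p = 0.0653 to 0.103). The Shh call was lost without chin mid anagen replicate 1, where the difference was -0.68 (limma adjusted p = 0.111). No member was called from late anagen to catagen (13.1% of all genes), where Shh had 0.57 ± 0.22 and Hhip 0.36 ± 0.13. From catagen to refractory telogen 6 of 7 members fell (48.0% of all genes called, 6480 of them higher and 3726 lower). The log2 differences were -1.19 ± 0.20 for Shh, -0.77 ± 0.11 for Ptch1, -0.63 ± 0.11 for Hhip, -0.62 ± 0.11 for Gli1, -0.33 ± 0.11 for Gli3 and -0.30 ± 0.09 for Gli2. The Gli3 call was lost without chin catagen replicate 2 (limma adjusted p = 0.0522) or chin refractory telogen replicate 1 (-0.23, limma adjusted p = 0.135). Smo had a difference of 0.01 ± 0.09.

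In ventral skin the first labelled step ran downward. Between competent telogen and early anagen 6 of 7 members fell, on a background of 42.5% of all genes. Shh went from 9.05, 11.92 and 8.82 FPKM to 0.14, 0.27 and 0.2 FPKM, a log2 difference of -3.17 ± 0.20 (limma adjusted p = 3.17e-13), with no overlap. The differences were -2.30 ± 0.11 for Hhip, -1.68 ± 0.11 for Gli1, -1.12 ± 0.11 for Ptch1, -1.05 ± 0.11 for Gli3 and -0.33 ± 0.09 for Gli2, and Smo, not called, had -0.17 ± 0.09. Gli2 lost its call under scaling by the median of ratios (limma adjusted p = 0.0697). The proliferation genes fell over the same step, from 344 to 407 FPKM down to 31.2 to 42.8 FPKM, and their part in the result was not tested. From early to mid anagen 6 members were called (42.4% of all genes), 5 of them upward. Shh rose by 2.04 ± 0.22 and Hhip by 1.05 ± 0.13, Gli1 rose by 0.68 ± 0.12, and Smo fell by 0.54 ± 0.10. The smaller rises of Ptch1 (0.33 ± 0.12, limma adjusted p = 0.0354) and Gli3 (0.32 ± 0.13, limma adjusted p = 0.0485) were lost after rescaling to TPM (0.0939 and 0.106 in limma) and without either ventral mid anagen replicate (up to 0.156 and 0.175). From mid to late anagen Ptch1 (0.50 ± 0.12) and Smo (0.43 ± 0.10) rose, with 24.2% of all genes called, and from late anagen to catagen Gli1 alone rose (0.46 ± 0.12, 5.93% of all genes called). The Smo call was lost without ventral mid anagen replicate 2 (limma adjusted p = 0.0582), and the Gli1 call without ventral late anagen replicate 2 or either catagen replicate (limma adjusted p = 0.0636 to 0.203). From catagen to refractory telogen 5 members fell (33.6% of all genes called). Gli1 went from 3.04 and 3.4 FPKM to 0.48 and 0.34 FPKM, a log2 difference of -1.58 ± 0.14 (limma adjusted p = 6.08e-10). Hhip (-1.25 ± 0.14), Ptch1 (-1.23 ± 0.14) and Gli3 (-0.85 ± 0.14) fell with it. The fall of Shh (-1.0 ± 0.25) rested on 1 library: without ventral refractory telogen replicate 2 it was -0.51 (limma adjusted p = 0.143).

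In dorsal skin the first step ran upward for every member. All 7 rose from competent telogen to early anagen, where 43.4% of all genes were called, 7483 of them upward and 1751 downward. Shh went from 2.21 and 1.97 FPKM to 9.99 and 11.65 FPKM, a log2 difference of 1.93 ± 0.25 (limma adjusted p = 3.34e-07), with no overlap. Hhip rose by 1.81 ± 0.14, Gli1 by 1.31 ± 0.14, Gli3 by 0.85 ± 0.14, Ptch1 by 0.79 ± 0.14, Smo by 0.55 ± 0.11 and Gli2 by 0.44 ± 0.11. The median of all genes shifted by 0.25 in this step. Once libraries were scaled by the median of ratios, Gli2 (0.14, limma adjusted p = 0.293) and Smo (0.15, limma adjusted p = 0.312) were no longer called. The Gli2 call was also lost without dorsal early anagen replicate 1, where the difference was 0.26. The proliferation genes rose over the same step, from 164 to 171 FPKM up to 469 to 470 FPKM, and their part in the result was not tested. Compared directly, the first step differed between dorsal and ventral skin by 5.11 ± 0.32 for Shh (limma adjusted p = 1.36e-13), 4.11 ± 0.18 for Hhip (limma adjusted p = 4.58e-17) and 1.91 ± 0.18 for Ptch1 (limma adjusted p = 5.31e-10), all on the log2 scale. This difference uses the competent telogen and ventral early anagen libraries that stood apart from their labels, and has no value without them.

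From early to mid anagen all 7 members fell in dorsal skin (39.2% of all genes called). The log2 differences were -1.38 ± 0.13 for Hhip, -1.34 ± 0.22 for Shh, -0.89 ± 0.12 for Gli1, -0.81 ± 0.10 for Gli2, -0.61 ± 0.12 for Ptch1, -0.42 ± 0.13 for Gli3 and -0.37 ± 0.10 for Smo. The calls of Gli3 and Smo were lost under scaling by the median of ratios (limma adjusted p = 0.341 and 0.56), that of Gli3 also without dorsal early anagen replicate 2 (0.0757) and that of Smo without dorsal early anagen replicate 1 (0.0762). No member was called from mid to late anagen, where 2.68% of all genes were, and the differences lay between -0.39 (Hhip) and 0.07 (Gli3).

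**Figure D2:**
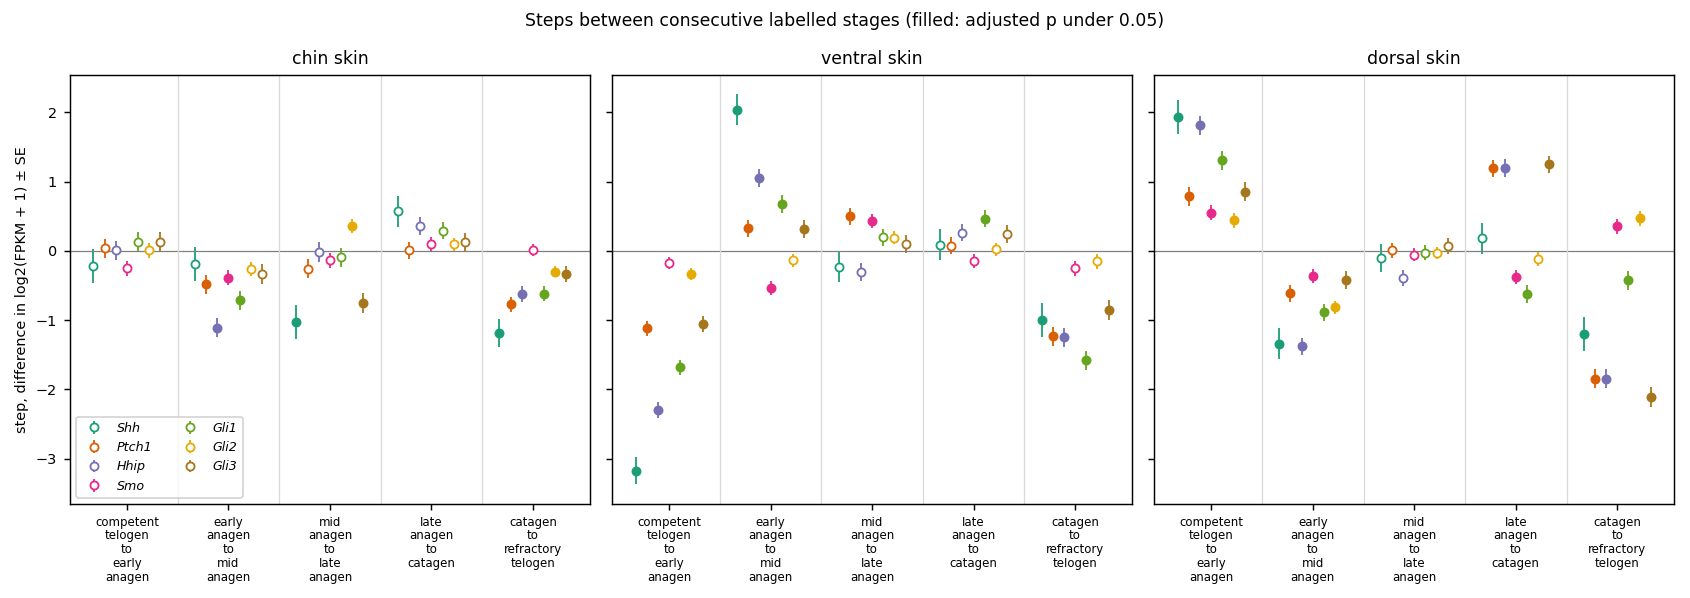
Difference in log2(FPKM + 1) between consecutive labelled stages (y axis, bars ± SE) for each of the 5 steps (x axis) in chin, ventral and dorsal skin, 1 colour per member, filled where limma adjusted p was under 0.05. From competent telogen to early anagen Shh falls by 3.17 in ventral skin and rises by 1.93 in dorsal skin, and from late anagen to catagen Ptch1, Hhip and Gli3 rise in dorsal skin while Gli1 falls.

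The step into the libraries labelled dorsal catagen separated the members. It was called for 5 of 7, on a background of 38.7% of all genes. Ptch1 went from 5.09, 5.14 and 5.36 FPKM to 12.53 and 13.75 FPKM, a log2 difference of 1.19 ± 0.12 (limma adjusted p = 8.53e-09). Gli3 went from 5.29, 5.3 and 5.03 FPKM to 12.97 and 14.51 FPKM, a difference of 1.25 ± 0.13 (limma adjusted p = 6.31e-09). Hhip went from 1.69, 1.49 and 1.45 FPKM to 4.98 and 4.66 FPKM, a difference of 1.19 ± 0.13 (limma adjusted p = 1.08e-08). In none of these did the stages overlap. Gli1 moved the other way, from 2.46, 2.48 and 2.27 FPKM to 1.1 and 1.32 FPKM, a difference of -0.62 ± 0.12 (limma adjusted p = 0.000166). Smo fell by 0.37 ± 0.10, a call that was lost without dorsal catagen replicate 1 (-0.27, limma adjusted p = 0.103). Shh (0.18 ± 0.22) and Gli2 (-0.12 ± 0.10) were not called. The rise was larger in dorsal than in chin skin by 1.18 ± 0.18 for Ptch1, 1.12 ± 0.18 for Gli3 and 0.83 ± 0.18 for Hhip, and larger than in ventral skin by 1.11 ± 0.18, 1.01 ± 0.18 and 0.93 ± 0.18, each with a limma adjusted p of at most 0.000532.

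The ratio of 2 members within a library does not depend on the scaling of that library. The Ptch1 to Gli1 ratio of FPKM was 10.4 and 11.4 in the 2 dorsal catagen libraries and between 1.14 and 4.9 in the other 41. For Gli3 to Gli1 it was 11 and 11.8 against 1.1 to 6.03, for Hhip to Gli1 3.53 and 4.53 against 0.574 to 1.82, and for Gli3 to Gli2 14.7 and 15.1 against 1.26 to 6.8. The Ptch1 to Gli3 ratio, 0.948 and 0.966 in dorsal catagen, lay inside the range of the other libraries, 0.561 to 1.36. The 8 proliferation genes summed to 389 to 397 FPKM in dorsal catagen and to 266 to 276 FPKM in dorsal late anagen, with 5 higher in catagen, among them Top2a (means of 32.9 and 116 FPKM in late anagen and catagen), and 3 lower, among them Cdk1 (75.5 and 60.5 FPKM). The 5 basal epidermis genes summed to 4603 to 4736 FPKM in late anagen and 2194 to 2256 FPKM in catagen, and the 5 genes of differentiated epidermis to 1388 to 1502 and 936 to 958 FPKM. Itga6 of the first list (means of 38.9 and 66 FPKM) and Flg2 of the second (155.5 and 174.8 FPKM) were higher in catagen. The other genes of both lists were lower. The part of these markers in the ratios was not tested. From dorsal catagen to refractory telogen all 7 members were called (43.7% of all genes), with log2 differences of -2.11 ± 0.14 for Gli3, -1.85 ± 0.14 for Ptch1, -1.85 ± 0.14 for Hhip, -1.2 ± 0.25 for Shh and -0.42 ± 0.14 for Gli1. Gli2 rose by 0.47 ± 0.11 and Smo by 0.35 ± 0.11. The call of Gli1 was lost without dorsal catagen replicate 2 (limma adjusted p = 0.106) and that of Smo without dorsal catagen replicate 1 (limma adjusted p = 0.144), and both were lost without dorsal refractory telogen replicate 1 (0.08 and 0.0535 in limma).

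**Figure D3:**
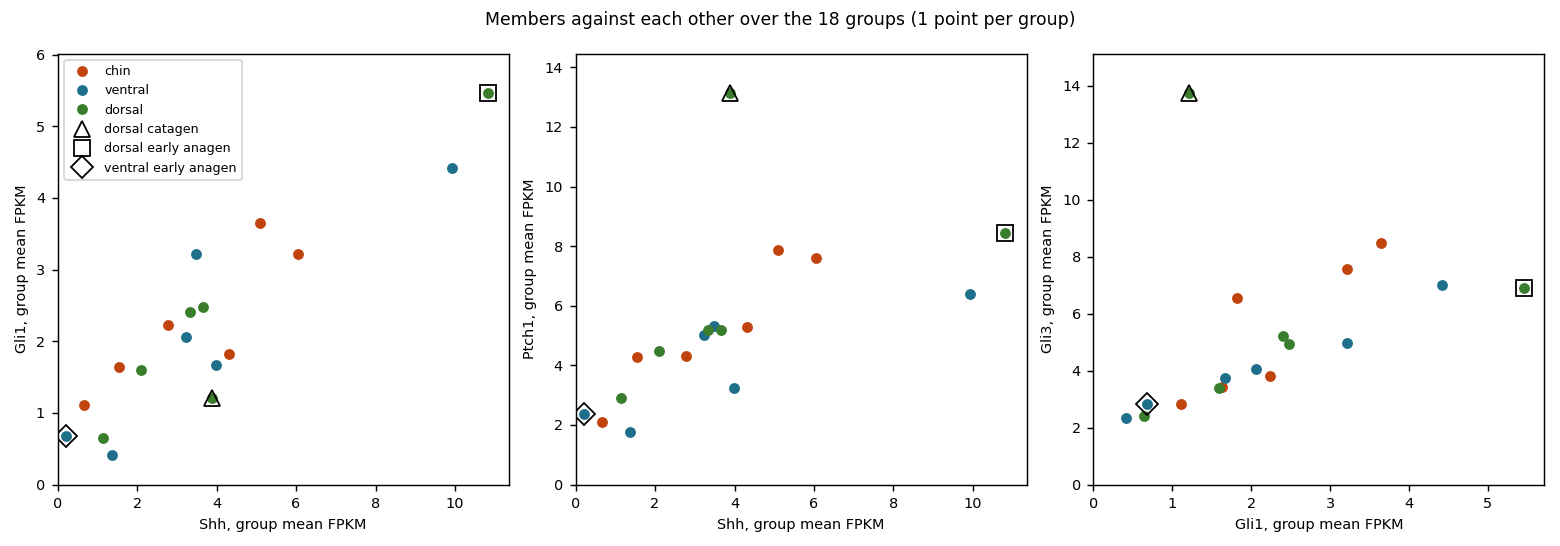
Group mean FPKM of Gli1 against Shh (left), Ptch1 against Shh (middle) and Gli3 against Gli1 (right), 1 point for each of the 18 groups, coloured by domain, with outlines around 3 named groups. Dorsal catagen (triangle) stands away from the other groups in the middle and right panels, at 13.14 FPKM of Ptch1 and 13.74 FPKM of Gli3 beside 3.9 FPKM of Shh and 1.21 FPKM of Gli1.

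The 2 stages labelled as telogen were compared, as refractory minus competent telogen. As given above, proliferation levels of competent telogen lay within the range of the anagen libraries other than ventral early anagen. Dct, a melanocyte gene, had means of 86.7, 55.9 and 49.8 FPKM in chin, ventral and dorsal competent telogen. In refractory telogen it had 8.29, 4.975 and 3.4 FPKM, and the other melanocyte genes were lower there too. In the chin 6 members were lower in refractory telogen (36.3% of all genes called), with log2 differences of -2.05 ± 0.22 for Shh, -1.47 ± 0.12 for Ptch1, -1.39 ± 0.13 for Hhip, -1.17 ± 0.13 for Gli3, -1.01 ± 0.12 for Gli1 and -0.66 ± 0.10 for Smo. Gli2 was not called (-0.11). The proliferation genes summed to 310 to 339 FPKM in chin competent and 44 to 63.1 FPKM in chin refractory telogen, to 344 to 407 and 55.1 to 55.8 FPKM in the ventral, and to 164 to 171 and 48.2 to 49.5 FPKM in the dorsal skin. Their part in these differences was not tested. In ventral skin all 7 were lower (42.6% of all genes called, 1726 higher and 7335 lower), with -2.55 ± 0.13 for Hhip, -2.27 ± 0.22 for Shh, -1.93 ± 0.12 for Gli1 and -1.45 ± 0.12 for Ptch1. Gli2 (-0.41 ± 0.10) lost its call under scaling by the median of ratios (limma adjusted p = 0.158) and without ventral refractory telogen replicate 2 (limma adjusted p = 0.0533). In dorsal skin 3 were lower (22.2% of all genes called), Gli1 (-0.66 ± 0.14), Hhip (-0.61 ± 0.14) and Ptch1 (-0.48 ± 0.14). The Ptch1 call was lost without dorsal competent telogen replicate 2 (limma adjusted p = 0.101) or dorsal refractory telogen replicate 1 (limma adjusted p = 0.0881). Shh had -0.53 ± 0.25 there (limma adjusted p = 0.128), with its 4 libraries not overlapping.

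At a given stage the domains were compared with each other. In competent telogen 6 of 7 members differed (54.0% of all genes called), and the dorsal libraries were lowest for all 6. For Shh the log2 difference was -1.81 ± 0.22 for dorsal minus ventral and -1.16 ± 0.25 for dorsal minus chin skin. In early anagen 6 members differed (51.6% of all genes), and the ventral libraries were lowest for all 6. Shh was higher in dorsal than in ventral skin by 3.29 ± 0.22, Hhip by 2.5 ± 0.13 and Gli1 by 1.94 ± 0.12. Gli2 was higher in dorsal than in ventral skin by 0.72 ± 0.10 and than in chin skin by 0.60 ± 0.11. Smo was not called (limma adjusted p = 0.331).

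In mid anagen 4 members were called (38.1% of all genes), Ptch1, Gli3, Smo and Gli1. Ptch1 was lower in ventral skin, at 3.18 and 3.3 FPKM, than in chin skin (5.32 and 5.28 FPKM) and dorsal skin (4.56, 5.26 and 5.74 FPKM), and the ventral libraries overlapped neither. The Gli1 call was lost without chin mid anagen replicate 2, either ventral mid anagen replicate or dorsal mid anagen replicate 1. The Smo call was lost without ventral mid anagen replicate 2 or dorsal mid anagen replicate 2 or 3. Shh was not called (limma adjusted p = 0.875), with a dorsal minus ventral difference of -0.09 ± 0.22. In late anagen 4 members were called (20.8% of all genes), Gli3, Shh, Smo and Gli2, and Shh was lower in chin than in dorsal skin by 0.76 ± 0.22. All 4 of these calls were lost when either chin late anagen library was left out. In catagen 6 members differed (42.9% of all genes), all but Shh. The Smo call was lost without ventral catagen replicate 2 (limma adjusted p = 0.0864) or dorsal catagen replicate 1 (limma adjusted p = 0.28). Gli3 was higher in dorsal than in chin skin by 1.61 ± 0.13 and Ptch1 by 1.41 ± 0.12, whereas Gli1 had -0.93 ± 0.14 for dorsal minus ventral skin. In refractory telogen 4 members differed (42.2% of all genes), and 2 without dorsal refractory telogen replicate 2. For ventral minus chin skin Hhip had -0.79 ± 0.13 and Gli1 had -0.57 ± 0.12. Ptch1 was higher in dorsal than in ventral skin by 0.55 ± 0.14, with the 2 ventral libraries apart at 2.35 and 1.15 FPKM. Its call among domains was lost without dorsal refractory telogen replicate 2. Gli2 only just passed (limma adjusted p = 0.0488) and was lost with a replicate block (limma adjusted p = 0.0632), and Shh had a limma adjusted p of 0.206, or 0.00926 without ventral refractory telogen replicate 2.

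The likeness of the members was described by correlations of log2(FPKM + 1) over the 18 group means, for which all genes were measured in the same libraries. Shh ran closest to Hhip (Pearson r = 0.88, Spearman rho = 0.89) and Gli1 (r = 0.87, rho = 0.81). Ptch1 ran closest to Gli3 (r = 0.94, rho = 0.96), and less closely to Gli1 (r = 0.68), a value that became 0.93 without dorsal catagen. Gli2 was the member least like the others, with r between -0.05 for Gli3 and 0.51 for Smo and Gli1. The mean of the proliferation genes ran with Shh (r = 0.92), Hhip (r = 0.88), Ptch1 (r = 0.87) and Gli1 (r = 0.86). Among 14565 genes with a mean of at least 1 FPKM, the 5 whose pattern was most like Shh were Pif1, Fam64a, Hist3h2ba, Racgap1 and Gsg2 (r = 0.95 to 0.96). For Gli1 they were Psrc1, Tcf19, E2f8, Pidd1 and Nudt21 (r = 0.96 to 0.97), and for Ptch1 they were Mcm3, Ncl, Rnmt, C330027C09Rik and Cenpe (r = 0.96). The best-ranked members were Gli3 at rank 15 for Ptch1, Hhip at rank 167 for Shh and Shh at rank 237 for Gli1. Ptch1 held rank 818 for Shh and 1754 for Gli1, and Gli1 held rank 1660 for Ptch1. Over the 43 single libraries instead of the group means, 2 of the 5 genes stayed among the nearest 5 for each of Shh, Gli1 and Ptch1.

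A list of 44 further pathway genes was examined beside the members. They were chosen by their known roles, with earlier results of these data known. Of these, 39 passed the filter of at least 0.5 FPKM in at least 2 libraries. The interaction of domain and stage was called for 36 of the 39, against 73.3% of all genes. Of the other ligands, Dhh, which acts in nerves and gonads, ranged from a mean of 0.175 FPKM in dorsal catagen to 1.98 FPKM in ventral early anagen, where Shh was lowest. Ihh, the ligand of cartilage growth, did not exceed 0.26 FPKM in its highest group and was not tested.

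The co-receptors had another order. Gas1, which helps the ligand to bind, was highest in chin refractory telogen, at 139 to 146 FPKM, and lowest in dorsal catagen, at 16.93 and 20.5 FPKM, a fall of 1.03 ± 0.12 from late anagen. Boc, a second co-receptor, ranged from a mean of 2.28 FPKM in chin late anagen to 6.43 FPKM in ventral competent telogen. Scube1, a secreted protein of the family that helps to release the ligand, had 2.73 and 3.2 FPKM in dorsal early anagen and 0.11 to 0.19 FPKM in chin refractory telogen. Scube2, of the same family, was instead highest in ventral early anagen, at 7.54 to 7.8 FPKM, where Shh was lowest.

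Among the cytoplasmic and ciliary regulators, 14 of 17 were called in the interaction, where 73.3% of all genes were. Sufu, which binds and restrains the Gli proteins, stayed between means of 2.66 and 5.37 FPKM. Cul3, a ubiquitin ligase scaffold, and Tulp3, a ciliary trafficking protein, were both highest in dorsal catagen, with rises of 1.04 ± 0.16 and 0.75 ± 0.12 from late anagen. Of the 6 intraflagellar transport and ciliary genes all were called, with Ift172 highest in dorsal catagen (16.8 and 17.27 FPKM) and Ift88 in chin early anagen (5.72 and 9.21 FPKM). Of 8 other reported targets 6 were tested and called, on the same background. Mycn, a growth-promoting transcription factor, ranged from a mean of 0.67 FPKM in dorsal refractory telogen to 23.1 FPKM in ventral competent telogen, and Ccnd1, cyclin D1, from 11.9 FPKM in dorsal refractory telogen to 68.5 FPKM in chin competent telogen. In the step from competent telogen to early anagen, 22 of the 39 genes rose and 3 fell in dorsal skin, with a median of 0.49 against 0.25 over all genes tested, of which 43.4% were called, 7483 upward and 1751 downward. In ventral skin 8 rose and 19 fell, with a median of -0.28 against -0.10 over all genes, of which 42.5% were called, 2815 upward and 6228 downward.

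**Figure D4:**
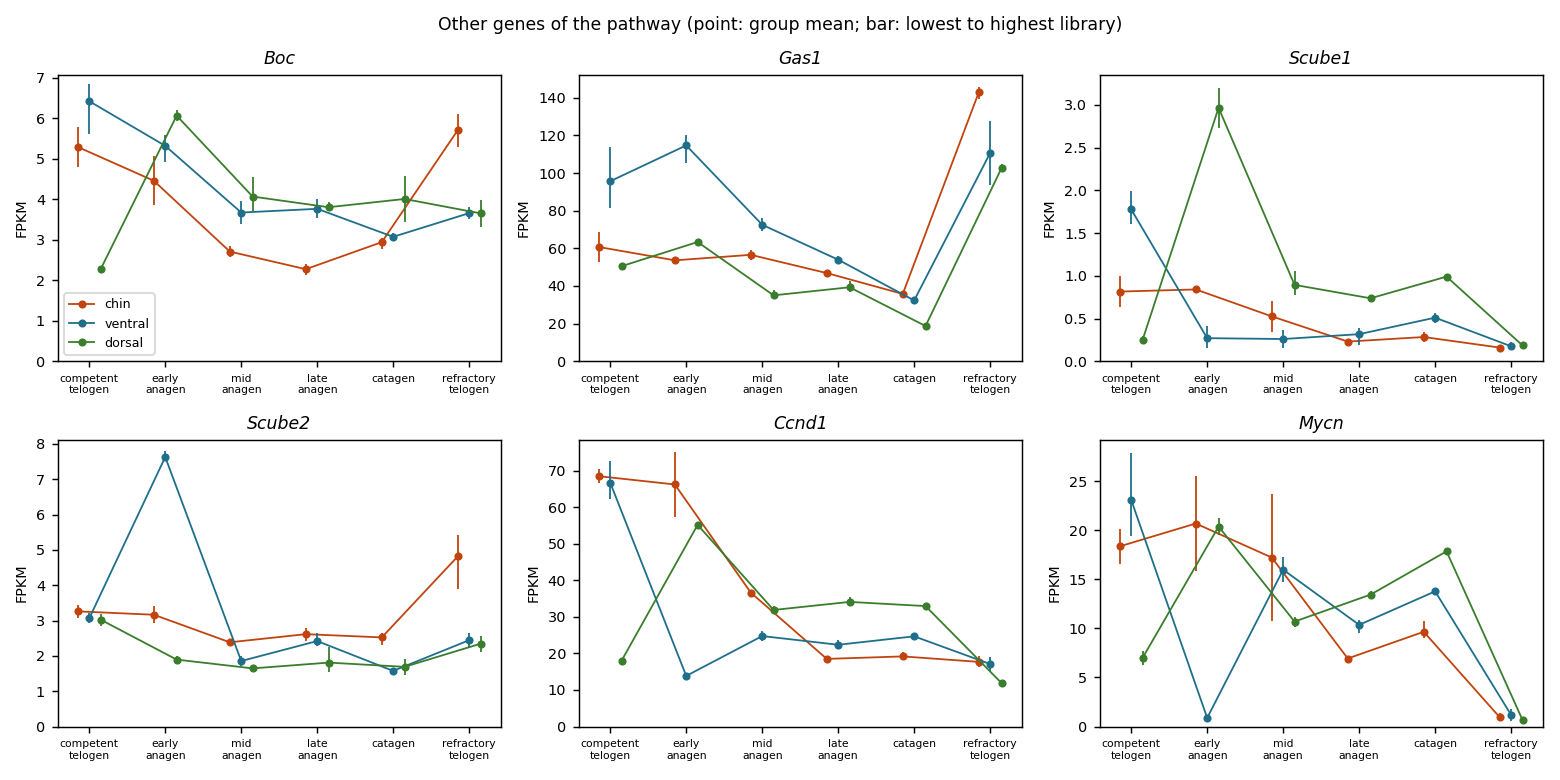
Group mean FPKM (y axis, bars from the lowest to the highest library) of 6 other pathway genes over the labelled stages (x axis) in chin, ventral and dorsal skin. Scube1, Ccnd1 and Mycn are low in ventral early anagen and high in dorsal early anagen, as Shh is, while Gas1 is highest in chin refractory telogen (mean 143 FPKM).

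In the ear table, telogen ear skin and the cartilage/muscle complex were set beside dorsal skin. The dorsal columns carry the competent telogen label, and the study calls the dorsal skin of this comparison refractory in one place and first telogen, its name for competent telogen, in another. These dorsal libraries were nearest to chin late anagen, and only 2 of 21257 genes were called between those groups. The ear skin columns carry numbers that differ from those in the labels, and were used as ear skin without a replicate number. The 8 hair shaft genes measured summed to 40.4 to 44.6 FPKM in ear skin, to 0 in the cartilage/muscle complex and to 9490 to 9595 FPKM in these dorsal libraries, and 7 cartilage genes averaged 7.25 on the log2 scale in the cartilage/muscle complex against 0.88 in ear skin. The melanocyte genes summed to 1.9 to 2.3 FPKM in the cartilage/muscle complex.

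Shh was listed at 0 in all 3 cartilage/muscle libraries and at 0 and 0.05 FPKM in ear skin, against 2.21 and 1.97 FPKM in dorsal skin. At the estimated depth, 3 fragments would be worth 0.094, 0.165 and 0.108 FPKM in the cartilage/muscle and 0.041 and 0.07 FPKM in the ear skin libraries, and levels under these are not told apart from 0. Ptch1 stood at 4.24 and 4.7 FPKM in dorsal skin, at 1.69 and 1.65 FPKM in ear skin and at 2.86, 1.85 and 2.69 FPKM in the cartilage/muscle complex. Hhip had 1.62 and 1.33 FPKM in dorsal skin, 0.41 and 0.61 FPKM in ear skin and 0.4, 0.28 and 0.15 FPKM in the cartilage/muscle complex. Dorsal skin was highest for these 3 genes, with no overlap. Smo was at 7.2 and 8.9 FPKM in dorsal skin, 9.31 and 7.83 FPKM in ear skin and 19.67, 22.05 and 17.57 FPKM in the cartilage/muscle complex. Gli2 had 1.68 and 1.84 FPKM in dorsal skin, 0.71 and 0.64 FPKM in ear skin and 1.76, 1.74 and 1.96 FPKM in the cartilage/muscle complex. Smo was thus set apart in the cartilage/muscle complex and Gli2 in ear skin. Gli3 went from 3.28 and 3.46 FPKM in dorsal skin to 2.88 and 2.85 FPKM in ear skin and 2.27, 2.15 and 2.6 FPKM in the cartilage/muscle complex. Gli1 was measured in all of these libraries, at 1.23 and 1.2 FPKM in ear skin and 0.9, 1.41 and 1.15 FPKM in the cartilage/muscle complex, against 1.58 and 1.61 FPKM in dorsal skin.

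**Figure D5:**
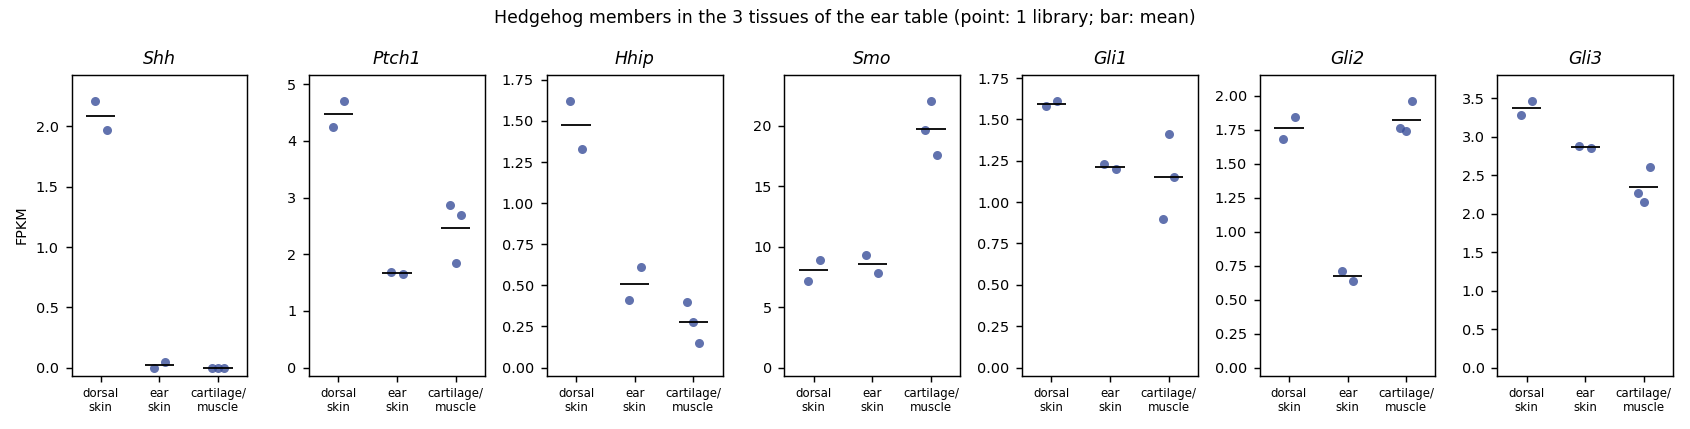
FPKM (y axis) of the 7 members in dorsal competent telogen skin, ear skin and cartilage/muscle complex (x axis), with 1 point per library and a bar at the mean. Shh is at most 0.05 FPKM in both ear tissues, and Smo is highest in the cartilage/muscle complex (17.57 to 22.05 FPKM).

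Between ear skin and dorsal skin 4 of 7 members were called, all lower in ear skin (59.3% of all genes called, 8619 higher and 2824 lower). The median of all genes was shifted by 0.33 toward ear skin. The log2 differences were -1.59 ± 0.10 for Shh, -1.03 ± 0.16 for Ptch1, -0.72 ± 0.10 for Gli2 and -0.71 ± 0.14 for Hhip. The limma adjusted p was 0.00206 for Ptch1, 0.00109 for Gli2 and 0.00556 for Hhip. Between the cartilage/muscle complex and dorsal skin 5 were called (71.1% of all genes). Shh (-1.63 ± 0.09), Hhip (-0.96 ± 0.13), Ptch1 (-0.67 ± 0.15) and Gli3 (-0.39 ± 0.09) were lower and Smo was higher (1.2 ± 0.13, limma adjusted p = 0.000314). Without dorsal competent telogen replicate 2 the Gli3 call was lost, with a difference of -0.36. Leaving out either dorsal library removed Shh from both comparisons with dorsal skin, since it no longer passed the filter. Shh passed the filter only through the 2 dorsal libraries, so its lower level in both ear tissues was set in advance by the filter. Its calls, counted above, are therefore no test of that difference. The 2 values for Shh depend on the pseudocount of 1 and are no bound on its fold change. Between the cartilage/muscle complex and ear skin 2 were called (66.5% of all genes), Smo (1.12 ± 0.13, limma adjusted p = 0.000497) and Gli2 (0.75 ± 0.09, limma adjusted p = 0.000435), both higher in the cartilage/muscle complex. Set against dorsal refractory telogen skin instead, a choice made after the data were seen, Gli1 was higher in both ear tissues, by 0.43 in ear skin (limma adjusted p = 0.033) and 0.38 in the cartilage/muscle complex (limma adjusted p = 0.0304), against -0.23 ± 0.13 and -0.28 ± 0.12 with competent telogen. Hhip in ear skin (-0.10), and Ptch1 (-0.19) and Gli3 (-0.03) in the cartilage/muscle complex, were then no longer called, and Shh stayed lower in both (-1.06 and -1.09).

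Other pathway genes set the cartilage/muscle complex apart. Boc had 60.06 to 64.27 FPKM there, 5.52 and 6.43 FPKM in ear skin and 2.26 and 2.29 FPKM in dorsal skin, and Scube1 had 31.3 to 38.03 FPKM against 0.2 to 0.23 and 0.2 to 0.3 FPKM. Their log2 differences between the cartilage/muscle complex and ear skin were 3.18 ± 0.08 and 4.86 ± 0.10. Of the 37 list genes tested in the ear table, 23 were higher and 9 lower in the cartilage/muscle complex than in ear skin, with a median of 0.56 against -0.11 over all genes, of which 66.5% were called, 5404 upward and 7433 downward. Dhh was listed at 2.1 to 3.74 FPKM in the cartilage/muscle complex, 1.57 and 1.85 FPKM in ear skin and 0.49 and 0.57 FPKM in dorsal skin. Ihh did not exceed 0.22 FPKM in any of these libraries.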

How the data were processed

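Per the labels and the study's methods, the authors isolated total RNA from whole skin, made SMART-seq2 libraries that do not mark the strand, sequenced them in pairs, quantified them against mm10 with RSEM 1.2.25 and deposited FPKM values. A batch correction is stated, without the batches or whether the deposited values carry it. From these values log2(FPKM + 1) was computed. Genes at 0.5 FPKM or more in any 2 libraries were kept. A limma (version 3.58.1) model over the 18 groups (43 libraries) and another over the 3 ear tissues (7 libraries) were fitted, with a variance trend and Benjamini-Hochberg adjustment. Scripts were tested on simulated data. The members and gene lists were chosen with earlier results of these data known. Named pathway genes were the 2 with the widest range of group means among those called in the interaction in each list, with some genes always named (Dhh, Ihh, Sufu and Boc), and a further gene of the rule is not reported here. Alternatives covered the pseudocount, filter, scaling, variance trend, libraries in the fit, a replicate block and each library left out.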

Additional observations from a re-analysis of the deposited data

Results flagged for a closer look

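The course over the labelled stages differed among chin, ventral and dorsal skin for each of the 7 members by the limma test of the interaction itself. The adjusted p was 1.4e-14 for Hhip, 1.43e-12 for Gli1, 1.31e-11 for Gli3, 3.04e-11 for Shh, 9.69e-11 for Ptch1, 7.77e-07 for Gli2 and 7.85e-06 for Smo, on a background of 73.3% of all genes called. Without the competent telogen and ventral early anagen libraries the limma adjusted p was 0.113 for Shh, 5.49e-06 for Hhip, 6.11e-06 for Gli1, 8.47e-06 for Ptch1, 1.34e-07 for Gli3, 6.14e-05 for Gli2 and 0.00118 for Smo. No group held more than 3 libraries, so no library was tested as far from its group.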

How the results depend on the processing

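Of the values recomputed under alternative processing, 3808 kept their direction and their side of the threshold, 124 lost a call, 40 gained one and 2 turned direction. The 2 that turned were Gli1 in the ear, 0.38 for the cartilage/muscle complex and 0.43 for ear skin, with dorsal refractory telogen as the dorsal skin. With limma fitted to the compared libraries alone, genes called among domains went from 4432 to 7002 in late anagen, from 8092 to 2635 in mid anagen and from 8972 to 3852 in refractory telogen, and the members called from 4 to 1 in mid anagen and from 4 to 1 in refractory telogen. Quantile normalization left 2 members in mid anagen. At a minimum of 2 FPKM the members called in the ear were 3 of the 5 between the cartilage/muscle complex and dorsal skin, 1 between the cartilage/muscle complex and ear skin, and 1 between ear skin and dorsal skin, since fewer members were tested. Of the genes nearest in pattern, 2 of 5 stayed for Shh, 2 for Gli1 and 2 for Ptch1 over single libraries. With libraries left out in sets chosen after the data were seen, some steps and stages had no value. Upward member calls over the remaining steps were 10 without competent telogen and ventral early anagen, against 21 over all steps. They were 12 without chin late anagen and dorsal competent telogen. Both sets took out the dorsal step from competent telogen to early anagen, where all members rose. The former also took out the ventral step from early to mid anagen, where most members rose. Over the ventral stages left in the former, 9807 genes were called, against 14912 over all ventral stages. Leaving out each library in turn gave 2379 to 3895 genes and 0 to 4 members among domains in late anagen, 2 to 4 members in mid anagen and in refractory telogen, and 3 to 6 members between the cartilage/muscle complex and dorsal skin. Scaling by the median of ratios moved the median of all genes from 0.25 to 0 in the dorsal step from competent telogen to early anagen.

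The replicate numbers did not pair the libraries (132 same-number pairs, median r = -0.004, 4 over 0.1). With the replicate block, 15395 genes and 7 members were called in the interaction, and the member calls over the steps were 21 upward and 39 downward. The members called among domains in refractory telogen went from 4 to 3, with Gli2 lost (limma adjusted p = 0.0632), and Gli3 was lost in the ventral step from early to mid anagen (limma adjusted p = 0.0621). Hhip gained a call in chin skin from late anagen to catagen (limma adjusted p = 0.0272) and in dorsal skin from mid to late anagen (limma adjusted p = 0.0444). No block was fitted in the ear, since the numbers on the ear skin columns do not match those in the labels. Apart from the steps and stages that were taken out with their libraries, the cause was not tested where these alternatives changed a value.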
